A study of Solanum lycopersicum with 4 samples.

Results

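The CLAVATA-WUSCHEL circuit sets how many stem cells a shoot or floral meristem keeps, and in tomato it is best known for setting the number of locules, the seed chambers of the fruit. The 9 genes described here were chosen by gene ID from published tomato genetics and not by any measured value. Earlier results of these data were known when the genes were chosen. All 9 are present among the 33976 transcripts of the deposited tables. They are the homeobox gene WUS, the peptide genes CLV3 and CLE9, the receptor genes FAB and CLV2, the arabinosyltransferase genes FIN and RRA3a, and the repressor genes ENO and IMA. Of the 9 pairs of ID and name, 7 were checked against the RefSeq gene table (assembly SLM_r2.1) by chromosome and by place along it. FIN and RRA3a were not looked up there, and their names rest on the gene IDs alone.

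RNA was sequenced from floral apices along with closed buds of tomato (Solanum lycopersicum). There were 2 libraries of plants labelled MT, which commonly stands for Micro-Tom, a dwarf tomato, and 2 of MT plants overexpressing the microRNA miR156 (156OE), and the study asked how miR156 and gibberellin act on floral meristem activity and fruit patterning. The labels give neither the promoter of the transgene nor the number of transgenic lines, and do not say whether the replicates are separate plants. The p-values therefore describe the spread among these 4 libraries and no more. Each library mixes meristems with buds, and the circuit genes are known to act in few cells of the meristem, so fewer cells of a type and less RNA per cell cannot be told apart.

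WUSCHEL is a transcription factor made in the organizing centre of the meristem, from which it promotes stem cell identity in the cells above. Those stem cells secrete the CLAVATA3 peptide, which acts through receptor proteins to repress WUS, so that the pair forms a feedback loop. Full activity of the tomato peptide needs chains of arabinose added by arabinosyltransferases, and loss of CLV3, of its receptor or of these enzymes gives larger meristems, extra floral organs and fruits with more locules.

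The MT libraries held 11203505 and 9369713 assigned reads, 156OE replicate 1 held 8440384 and 156OE replicate 2 held 1685657. The 156OE pair also varied more between replicates (edgeR common dispersion 0.0883 against 0.00664 in MT). As a check of the genotype, since miR156 itself was not measured, 4 of 5 IDs of its known target family, the SBP-box genes, had lower counts per 1000000 assigned reads (CPM) in both 156OE libraries than in both MT libraries, with log2 changes from -1.97 to -0.83. Of all tested genes, 29.7% were likewise lower in CPM in both. None of the 5 passed edgeR's test over all genes (lowest adjusted p = 0.132). Of the 9 listed floral markers, 7 had a checked name and all 7 had reads in every library. Their summed level was 422.9 and 440.0 TPM in MT, 519.9 TPM in 156OE replicate 1 and 250.9 TPM in replicate 2. They did not move alike: FA, the tomato LEAFY gene, was at 131.5 and 114.8 TPM in MT and 71.5 and 42.9 TPM in 156OE, while the petal and stamen gene TAP3 was at 14.6 and 19.9 TPM in MT, 41.9 TPM in 156OE replicate 1 and 3.70 TPM in replicate 2. TPM counts a transcript's copies among 1000000 transcripts, after scaling by effective length. Of 3 markers of other tissue, the Rubisco small subunit gene RBCS3 was at 213.0 and 209.1 TPM in MT against 354.0 and 692.6 TPM in 156OE, while the pollen gene LAT52 was at 0 in 3 of 4 libraries. LAT56, also a pollen gene, had reads in every library, at 4.71 and 3.55 TPM in MT against 1.22 and 0.85 TPM in 156OE. Whether the makeup of the tissue took part in any value below was not tested.

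No gene of the circuit was called between 156OE and MT. Of the 9 genes, 7 had enough reads to be tested, and 0 of 7 passed edgeR's quasi-likelihood test at an adjusted p of 0.05, where 0.00544% of all 18385 tested genes did. At an unadjusted p under 0.05 edgeR counted 0 of 7, beside 11.4% of all tested genes. At an adjusted p under 0.05 DESeq2 called 0 of 7, beside 1.08% of all tested genes. The log2 changes ran from -0.37 for FAB to 0.33 for CLV3, with a median of -0.11 beside 0.012 over all tested genes.

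**Figure D1:**
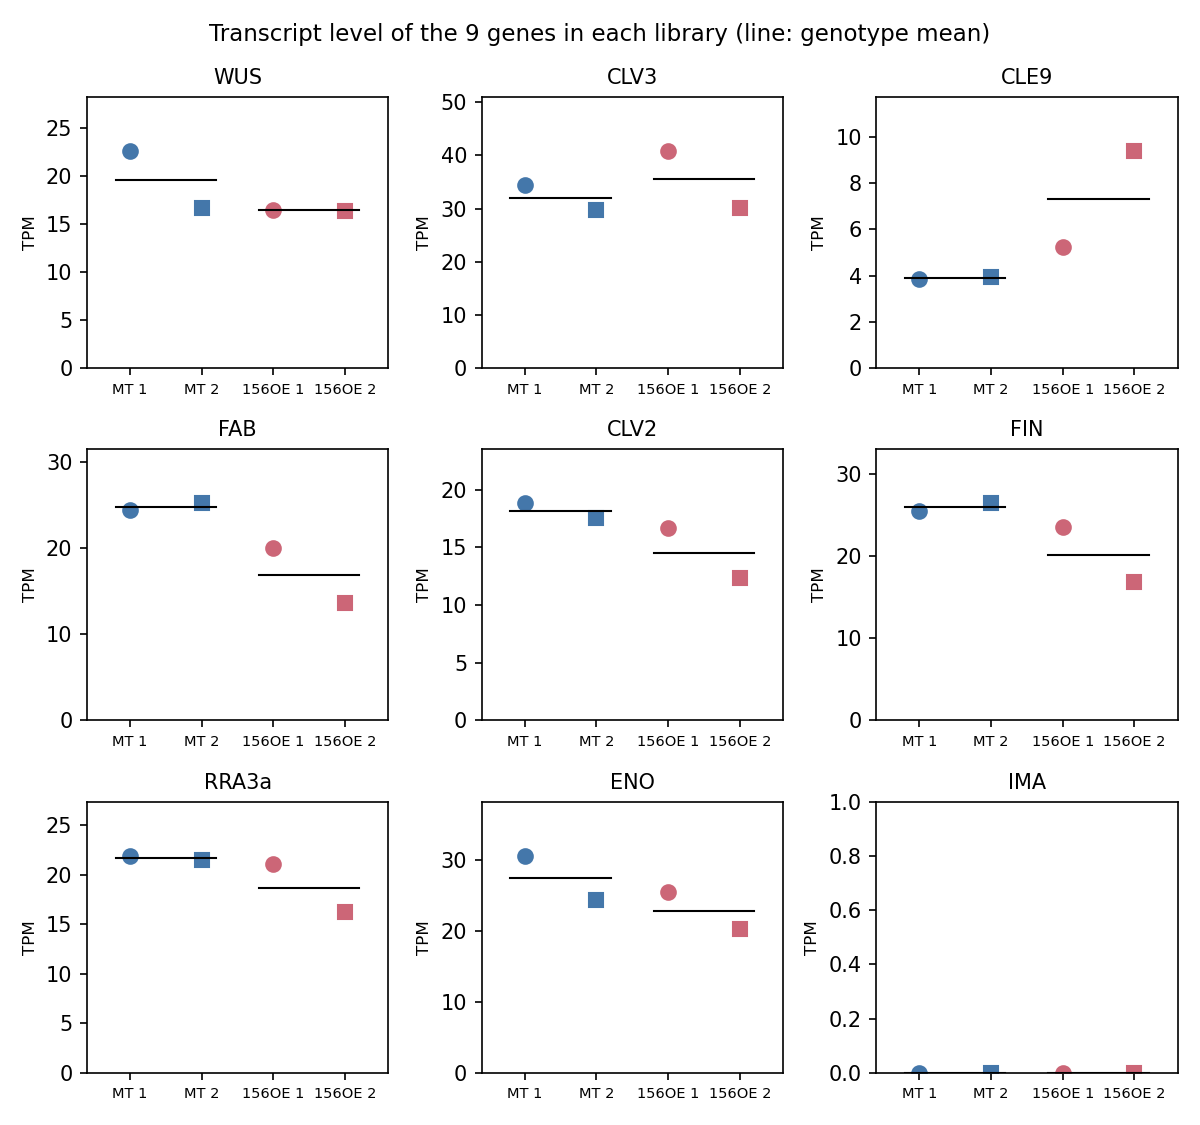
Level of each of the 9 genes in TPM (vertical axis, each panel with its own scale from 0) in the 2 MT libraries (blue) and the 2 libraries of 156OE (red), with circles for replicate 1, squares for replicate 2 and a line for each genotype's mean. CLV3 is between 29.8 and 40.9 TPM throughout, and IMA is at 0 in all 4. WUS, FAB, CLV2, FIN and RRA3a are below MT in both 156OE libraries, as are 38.5% of all tested genes. CLE9, on few reads, is above MT in both.

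WUS (Solyc02g083950, chromosome 2) is the output of the circuit and the gene near which the locule number locus of tomato lies. It was at 22.6 TPM in MT replicate 1 and 16.6 TPM in MT replicate 2, and at 16.4 TPM in each of the 156OE libraries. The 156OE values thus lay at the lower of the MT values, and the MT replicates differed from each other by more than MT replicate 2 differed from either 156OE library. The counts behind them were 198, 120, 112 and 23 reads, in the order MT 1, MT 2, 156OE 1, 156OE 2. The log2 change was -0.11 ± 0.24 (SE; edgeR adjusted p = 0.908), with a 95% interval from 0.604 to 1.43 as a fold of the MT level. Without MT replicate 1 the log2 change was 0.15, and without MT replicate 2 it was -0.31, so the sign depended on which MT library was kept. Leaving out 156OE replicate 1 gave 0.015, and leaving out 156OE replicate 2 gave -0.20.

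Among the ligands, CLV3 (Solyc11g071380, chromosome 11), whose lowered expression underlies the many-chambered fruits of the fasciated locus, was the most abundant transcript of the 9 per unit length in every library. It was at 34.4 and 29.8 TPM in MT and at 40.9 and 30.1 TPM in 156OE. The groups overlapped, since 156OE replicate 2 lay between the MT libraries. Its log2 change was 0.33 ± 0.31 (SE; edgeR adjusted p = 0.694), with a 95% fold interval from 0.723 to 2.20. The change was 0.18 without MT replicate 2 and 0.49 without MT replicate 1. The change of 0.33 over all libraries rested on 49, 33, 43 and 7 reads. The 7 reads of 156OE replicate 2 alone allow between 1.67 and 8.56 CPM (exact 95% binomial interval, which covers counting error only). CLV3 was the 1 tested gene of the circuit with a positive log2 change.

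CLE9 (Solyc06g074060, chromosome 6) encodes a related peptide, which in tomato is known to rise and to partly take over the role of CLV3 when CLV3 is lost. It had 5 and 4 reads in MT and 5 and 2 reads in 156OE, too few to be tested. Per unit length this was 3.85 and 3.95 TPM in MT and 5.22 and 9.40 TPM in 156OE, so both 156OE values were the higher ones, but the highest of them came from 2 reads. The exact 95% binomial intervals overlapped in all 4 libraries, from 0.145 to 1.04 and 0.116 to 1.09 CPM in MT and from 0.192 to 1.38 and 0.144 to 4.29 CPM in 156OE. With no filter on low counts, edgeR gave a log2 change of 0.84 (adjusted p = 0.796). A difference in CLE9 was not detectable at this depth.

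**Figure D2:**
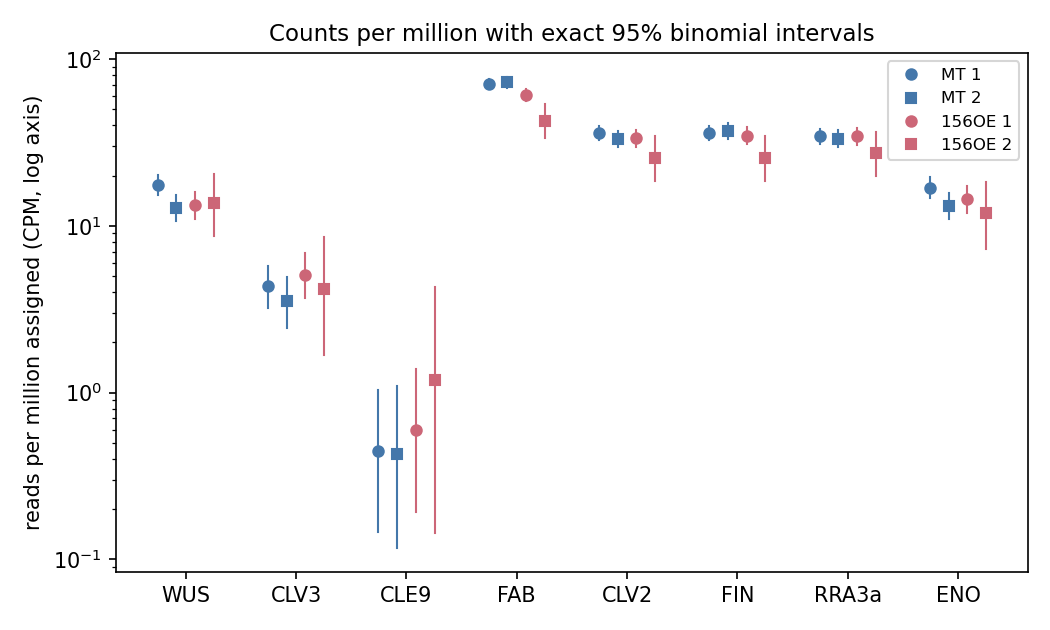
CPM (log axis) of the 8 genes with reads, by library (blue MT, red 156OE, circles replicate 1, squares replicate 2), with exact 95% binomial intervals as vertical bars. The bars are widest for 156OE replicate 2 and for CLE9, whose 4 intervals all overlap.

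The ratio of the peptide transcript to the WUS transcript does not depend on how libraries are scaled to each other. CLV3 stood at 1.52 and 1.79 times WUS in TPM in the MT libraries and at 2.49 and 1.84 times in the 156OE libraries. Both 156OE ratios were above both MT ratios, yet the nearest of them, 1.79 and 1.84, differed by less than the MT ratios did from each other. The 1.84, of 156OE replicate 2, rested on 7 CLV3 reads and 23 WUS reads. What share of other gene pairs separates likewise was not counted. The ratio of CLE9 to CLV3 was 0.112 and 0.133 in MT and 0.128 and 0.312 in 156OE, so the groups overlapped. The 0.312, of 156OE replicate 2, rested on 2 CLE9 reads and 7 CLV3 reads. Since an exact permutation of 2 libraries against 2 has 0.33 as its smallest p, these ratios were not tested.

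Of the receptors, FAB (FASCIATED AND BRANCHED, Solyc04g081590, chromosome 4) encodes the tomato CLAVATA1 receptor kinase, and RefSeq lists it as CLV1. It had the lowest p of the circuit genes. It was at 24.5 and 25.2 TPM in MT and at 20.1 and 13.6 TPM in 156OE, with 799, 683, 516 and 72 reads in the order MT 1, MT 2, 156OE 1, 156OE 2. The MT pair lay close together, the 156OE pair lay far apart, and the groups did not overlap. By TPM, 38.5% of all tested genes were likewise lower in both 156OE libraries. The log2 change was -0.37 ± 0.15 (SE; edgeR unadjusted p = 0.0516, adjusted p = 0.441), and its 95% fold interval, from 0.598 to 1.003, ended just above no change. Of all tested genes, 11.7% had a lower p. Leaving out 156OE replicate 2 gave a log2 change of -0.23, and leaving out 156OE replicate 1 gave -0.57 (edgeR adjusted p = 0.361 and 0.0695). With all 4 libraries kept, the adjusted p of FAB ranged from 0.409 (limma-voom with quality weights) to 0.919 (DESeq2). Its unadjusted edgeR p was 0.0498 with DESeq2 size factors, 0.0406 with no low-count filter and 0.0475 with an effective-length offset. With MT 1 paired to 156OE 2 it was 0.043. It was 0.053 with upper-quartile scaling, 0.065 with library totals only and 0.071 with a replicate block. Whether it fell under 0.05 thus depended on the setting.

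CLV2 (Solyc04g056640, chromosome 4) encodes a receptor-like protein that has no kinase domain. It was at 18.8 and 17.5 TPM in MT and at 16.7 and 12.4 TPM in 156OE. The 156OE values were the lower ones, as they were for 38.5% of all tested genes. Replicate 1 of 156OE was closer to the MT libraries than to 156OE replicate 2. Its log2 change was -0.13 ± 0.14 (SE; edgeR adjusted p = 0.745), with a 95% fold interval from 0.708 to 1.18. It was -0.047 and -0.27 when 156OE replicate 2 or replicate 1 was left out, and -0.081 and -0.20 when MT replicate 1 or replicate 2 was. Within each library FAB stood at 1.30 and 1.44 times CLV2 in MT and at 1.20 and 1.10 times in 156OE. The ratio of the receptor transcripts was thus lower in both 156OE libraries, by a gap smaller than the difference within MT. What share of other gene pairs separates likewise was not counted.

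The arabinosyltransferase genes were measured with similar precision. FIN (FASCIATED INFLORESCENCE, Solyc11g064850, chromosome 11) is known to encode a hydroxyproline O-arabinosyltransferase, whose loss gives branched inflorescences and extra floral organs. It was at 25.5 and 26.4 TPM in MT and at 23.6 and 16.8 TPM in 156OE, with 405, 347, 293 and 43 reads. Both 156OE libraries were below both MT libraries, as for 38.5% of all tested genes, and 156OE replicate 1 was near the MT values. The log2 change was -0.17 ± 0.15 (SE; edgeR adjusted p = 0.658), with a 95% fold interval from 0.687 to 1.15. Leaving out 156OE replicate 2 gave -0.069, and leaving out 156OE replicate 1 gave -0.34.

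RRA3a (Solyc04g080080, chromosome 4), known as the arabinosyltransferase gene that extends the arabinose chain, had the log2 change nearest to 0 in the TMM-scaled edgeR fit, though not in TPM, where CLV3 was nearer. It was at 21.9 and 21.5 TPM in MT and at 21.1 and 16.2 TPM in 156OE. The first 3 of these values differed by little and 156OE replicate 2 was the low one. Its log2 change was -0.033 ± 0.13 (SE, edgeR adjusted p = 0.997). The 95% fold interval, from 0.773 to 1.24, was the narrowest of the 7 on the log2 scale. With 1 library left out the log2 change ran from -0.13 without 156OE replicate 1 to 0.029 without 156OE replicate 2, where its sign turned; it was -0.022 without MT replicate 1 and -0.064 without MT replicate 2. The ratio of FIN to RRA3a was 1.16 and 1.23 in MT and 1.12 and 1.04 in 156OE.

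Of the repressors of WUS, ENO (EXCESSIVE NUMBER OF FLORAL ORGANS, Solyc03g117230, chromosome 3) encodes an AP2/ERF transcription factor, whose loss widens the WUS domain and adds locules. It was at 30.5 and 24.4 TPM in MT and at 25.5 and 20.2 TPM in 156OE. The groups overlapped, since 156OE replicate 1 lay between the MT libraries. Its log2 change was -0.096 ± 0.21 (SE; edgeR adjusted p = 0.906), with a 95% fold interval from 0.640 to 1.37. As for WUS, the sign turned without MT replicate 1, to 0.085, and the change was -0.27 without MT replicate 2. Leaving out 156OE replicate 1 or replicate 2 gave -0.17 and -0.062.

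IMA (INHIBITOR OF MERISTEM ACTIVITY, Solyc02g087970, chromosome 2) encodes a small zinc finger protein known to help to shut WUS off in the floral meristem. No read was assigned to it in any of the 4 libraries. A count of 0 allows up to 0.268 and 0.320 CPM in MT and up to 0.355 and 1.78 CPM in 156OE (3 reads of each total), and up to 0.0977 CPM over all libraries together. Its transcript model is 273 bases long, and only 44.5% to 48.1% of that counts as effective length, so in TPM the limits are 2.23, 2.84, 3.01 and 13.6 in the order MT 1, MT 2, 156OE 1, 156OE 2. CLE9 in 156OE replicate 2, at 9.40 TPM, is thus below the level at which IMA could have gone unseen there. Of all transcripts, 28.4% had no read in any library.

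The transcript models matter for how these levels are read. Of the 9 models, 7 have lengths that are multiples of 3, as do 56.8% of all transcripts, and WUS and RRA3a are the exceptions. The models of CLV3, CLE9 and IMA are 282, 267 and 273 bases long, with effective lengths of 43.8% to 49.1% of these, against 77.2% to 95.2% for the other 6. CLV3 therefore had the highest TPM of the circuit on fewer reads than every other tested member. Whether reads from outside these models were lost was not tested.

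Ordered by mean TPM in MT, the levels ran CLV3, ENO, FIN, FAB, RRA3a, WUS, CLV2, CLE9 and IMA. Neighbours overlapped between libraries for CLV3 and ENO, for ENO and FIN, for RRA3a and WUS, and for WUS and CLV2. In 156OE the order was the same except that RRA3a stood above FAB, and all neighbours from ENO to CLV2 overlapped. CLE9 was below CLV2, and CLV3 was the highest, without overlap in 156OE. In MT replicate 1, 75.9% of all genes had a lower TPM than WUS and 83.1% a lower TPM than CLV3.

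By TPM, 5 of the 7 tested genes (WUS, FAB, CLV2, FIN and RRA3a) were lower in both 156OE libraries than in both MT libraries, and 0 were higher. The same held in the lower direction for 38.5% of all tested genes, and in the higher direction for 11.6%. All 7 had a lower TPM in 156OE replicate 2 than in replicate 1, as had 71.3% of all tested genes. TPM shifted the whole comparison down, with a median log2 difference of -0.17 over all tested genes in log2(TPM + 1). Relative to that median, FAB was at -0.39, FIN at -0.20, CLV2 at -0.15, ENO at -0.087, WUS at -0.059, RRA3a at -0.051 and CLV3 at 0.30. On CPM scaled with edgeR's TMM factors, FAB and FIN were lower without overlap, where 23.8% of tested genes were, and CLV3 was higher without overlap, where 22.8% were. FAB read 69.0, 70.7, 59.5 and 47.1 TMM-scaled CPM, FIN 35.0, 35.9, 33.8 and 28.1, and CLV3 4.23, 3.42, 4.96 and 4.58, in the order MT 1, MT 2, 156OE 1, 156OE 2. WUS, at 17.1, 12.4, 12.9 and 15.0, then had 156OE values between the MT values.

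Replicates of the circuit genes spread much as other genes did. The median absolute log2 difference between replicates over the 7 genes was 0.118 in MT and 0.214 in 156OE, beside 0.142 and 0.293 over all tested genes. WUS and ENO had the largest differences within MT, at 0.453 and 0.348, and FAB and FIN the largest within 156OE, at 0.338 and 0.265.

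**Figure D3:**
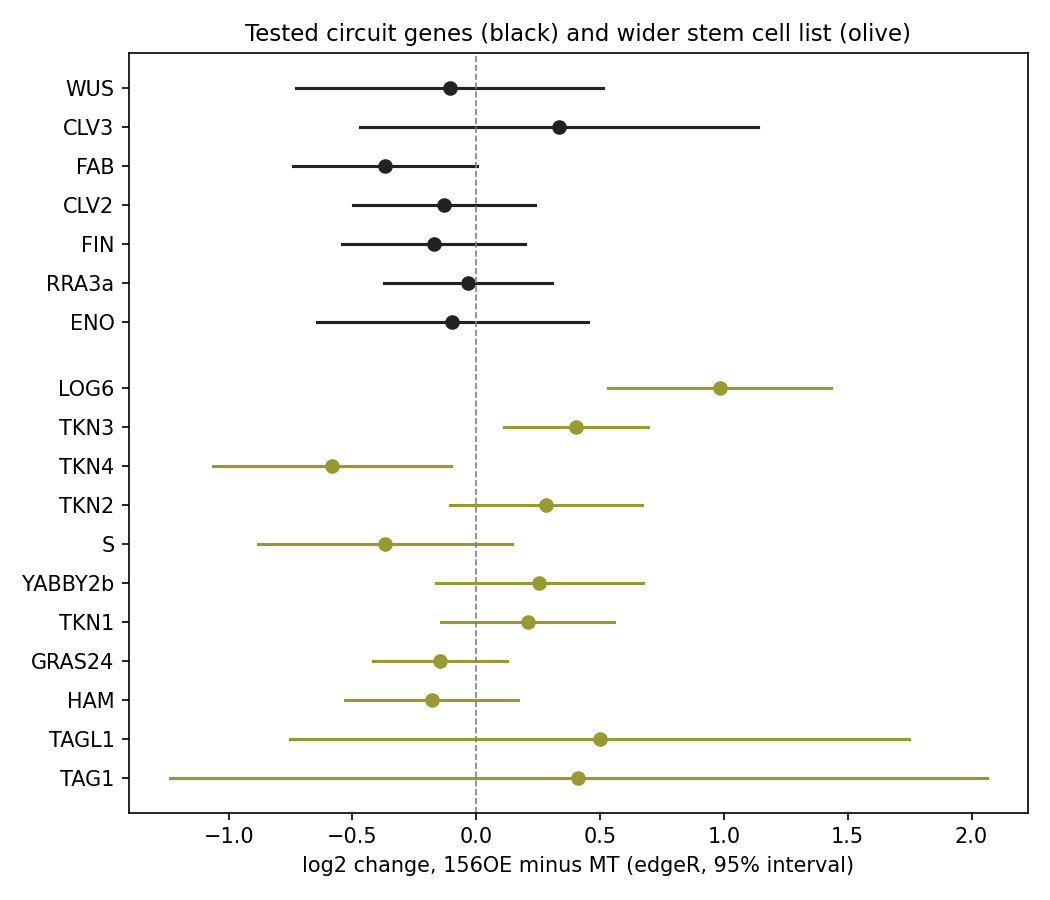
Log2 change of 156OE minus MT (horizontal axis, edgeR) with 95% intervals for the 7 tested circuit genes (black) and 11 genes of the wider stem cell list (olive). All 7 black intervals include 0; that of FAB ends at 0.0037, and LOG6, TKN3 and TKN4 are the olive genes whose intervals leave out 0, with adjusted p values of 0.262, 0.364 and 0.392.

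A wider list of genes that act beside the circuit (KNOX and GRAS regulators, C-class MADS-box genes, a cytokinin enzyme and others) held 29 IDs, of which 11 had a name that could be checked, and all 11 were tested. By edgeR 0 of 11 passed over all genes (0.00544% of all tested genes did) and 3 had an unadjusted p under 0.05 (11.4% of all). DESeq2 called 0 at an adjusted p under 0.05 (1.08% of all). Their median log2 change was 0.26 beside 0.012 over all tested genes, and 4 of the 11 were below 0, as were 48.5% of all. That median covers only the IDs with a checked name. By TPM most of the IDs left out were lower in both 156OE libraries than in both MT libraries, as were 38.5% of all tested genes. Of the IDs left out, Solyc02g085600 and Solyc03g113720 were higher in both. LOG6 (Solyc10g084150), which activates cytokinin, a hormone known to promote WUS, was at 33.6 and 33.5 TPM in MT and at 70.6 and 46.6 TPM in 156OE. Both 156OE libraries were higher, as they were by TPM for 11.6% of all tested genes. For LOG6 the log2 change came to 0.98 ± 0.18 (SE, edgeR adjusted p = 0.262). It was called once 156OE replicate 2 was left out (edgeR adjusted p = 0.000691), as were 3.45% of genes in the higher direction. TKN3 (Solyc05g005090), a KNOX gene, was at 45.4 and 44.5 TPM against 57.0 and 48.3 TPM, with a log2 change of 0.40 ± 0.11 (edgeR adjusted p = 0.364). TKN4 (Solyc01g100510), another KNOX gene, was at 31.5 and 35.0 TPM in MT and 23.5 and 14.9 TPM in 156OE, with a log2 change of -0.58 ± 0.19 (edgeR adjusted p = 0.392).

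The KNOX gene TKN2 (Solyc02g081120), a marker of meristem tissue, was at 88.9 and 109.5 TPM in MT and at 122.9 and 90.6 TPM in 156OE, and its log2 change came to 0.28 ± 0.15 (SE; edgeR adjusted p = 0.526). S (Solyc02g077390), a WUSCHEL-related homeobox gene of inflorescence branching, was at 25.2 and 25.6 against 20.96 and 13.1 TPM (edgeR adjusted p = 0.527). YABBY2b (Solyc11g071810), near the fasciated locus, was at 35.0 and 40.4 against 44.4 and 35.5 TPM (edgeR adjusted p = 0.577). The C-class gene TAG1 (Solyc02g071730), which ends WUS activity in the flower, was at 11.9 and 13.3 TPM in MT, 23.9 TPM in 156OE replicate 1 and 3.02 TPM in replicate 2. The 156OE libraries thus lay on opposite sides of MT for TAG1, which was called higher without 156OE replicate 2 (log2 change 0.99, edgeR adjusted p = 0.00793) and lower without 156OE replicate 1 (log2 change -1.77, edgeR adjusted p = 0.042; 2.48% of genes were called lower there).

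Set against TKN2 within each library, CLV3 was at 0.387 and 0.272 times TKN2 in MT and at 0.33 times in each 156OE library, inside the MT range. WUS was at 0.254 and 0.151 times in MT and at 0.133 and 0.181 times in 156OE, with overlap. FAB was at 0.275 and 0.230 times in MT and at 0.163 and 0.151 times in 156OE, below MT in both. Ratios to TKN2 were also below MT in both 156OE libraries for CLV2, FIN and RRA3a, as they were for 45.2% of all tested genes. For ENO the ratio was 0.223 both in MT replicate 2 and in 156OE replicate 2.

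**Figure D4:**
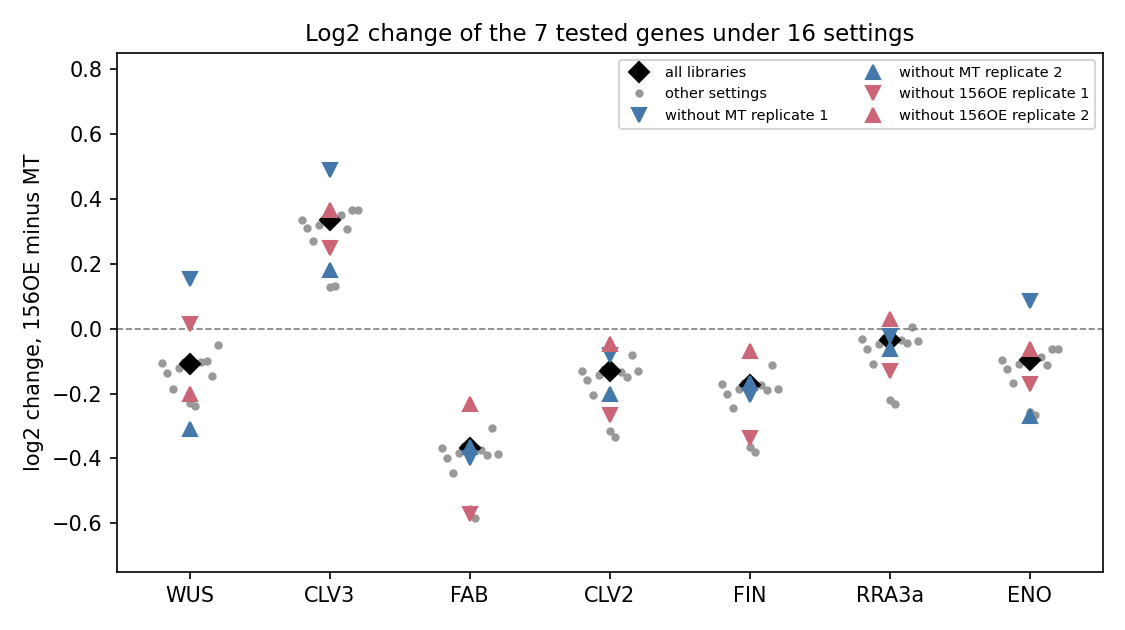
Log2 change of 156OE minus MT (vertical axis) for each of the 7 tested genes under 16 settings: all libraries (black diamond), with 1 library left out (blue triangles MT, red triangles 156OE) and under the other settings (grey dots). CLV3 stays above 0 and FAB, CLV2 and FIN stay below 0, while WUS, RRA3a and ENO have values on both sides of 0.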

How the data were processed

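The authors deposited Salmon tables of 33976 transcripts, 1 per gene ID, for 4 libraries. Per the submitters' processing notes, Salmon, SAMtools, Picard, HISAT2 and Trimmomatic were used, in no stated order. The build of the genome is not given in the sources used here. Estimated counts deposited by the authors were not normalized and were rounded for tests. The TPM values deposited by the authors sum to 1000000 per library, and deposited effective lengths came with them.

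Genes were tested with edgeR 4.0.16 in R 4.3.3 (two-sided quasi-likelihood F test after TMM scaling and filterByExpr, genotype as the only term, Benjamini-Hochberg over 18385 genes at 0.05). Standard errors were taken as log2 change over √F. edgeR keeps p from falling below that of a Poisson fit, which raised the p of RRA3a. The script was tested on data simulated with the same dispersion in every library and with changes larger than those of the circuit genes. Dispersion differs between the genotypes here, so that test does not show how well changes of these genes would be found. DESeq2 1.42.0 and limma 3.58.1 served as alternatives.

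The members and lists were chosen with earlier results of these data known. Names were checked in RefSeq (assembly SLM_r2.1) by chromosome and relative place, within 0.03. Of the wider list, 17 symbols were not in that table and 1 lay on another chromosome, and these were left out. All 9 members were named, and of the wider list the 6 with the lowest p, TKN2 and TAG1. Planned promoter motifs were not run, since no sequences were used here.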

Additional observations from a re-analysis of the deposited data

How the results depend on the processing

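Under 15 alternatives no circuit gene was called, and CLV3, FAB, CLV2 and FIN kept their signs. Several of these alternatives called 1 gene or none among all genes, so they could hardly have called a circuit gene. Leaving out 1 library at a time gave log2 changes from -0.31 to 0.15 for WUS (0.15 without MT replicate 1, 0.015 without 156OE replicate 1), from -0.27 to 0.085 for ENO (0.085 without MT replicate 1), from -0.13 to 0.029 for RRA3a (0.029 without 156OE replicate 2), from 0.18 to 0.49 for CLV3, from -0.57 to -0.23 for FAB, from -0.27 to -0.047 for CLV2 and from -0.34 to -0.069 for FIN. RRA3a was also above 0, at 0.0038, in limma-voom with quality weights, chosen after seeing the data. The cause of these turns was not tested. With all libraries, edgeR had 1 gene higher and 0 lower. It had the same counts with DESeq2 size factors, upper-quartile scaling, library totals only or an effective-length offset. The counts were 57 and 28 with no low-count filter, 145 and 54 with DESeq2, 0 and 0 with limma on log2(TPM + 1) and on log2(TPM + 0.1), and 23 and 3 with quality weights. With a library left out they ran from 0 to 1532 higher and from 0 to 466 lower, and calls in the wider list from 0 to 2. Without an MT library, the spread came from the 156OE pair alone, and without a 156OE library from the MT pair alone.

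The labels do not say whether the replicate numbers pair the samples. The correlation of replicate differences between genotypes was -0.25, which cannot show how the samples were collected. With a replicate block edgeR called 0 genes higher and 0 lower, and no circuit gene (FAB log2 change -0.39, adjusted p = 0.697). With MT 1 paired to 156OE 2, chosen after seeing the data, it also called 0 and 0. Depth limits CLE9, with 2 to 5 reads per library, and IMA, with none in any.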
